A study of Oryctolagus cuniculus with 20 samples.

Results

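The genes of neutrophil granule peptides and calgranulins, 5 in all, were followed in the condylar cartilage of the rabbit temporomandibular joint, the jaw joint whose condyle is capped by cartilage. Their probes were taken from the array files by description, as any probe described as a defensin, corticostatin, neutrophil antibiotic peptide, cathelicidin, CAP18, calgranulin, S100A8 or S100A9 and not as a beta-defensin. This gave 16 of the 43603 probes on the array, on 20 of 43803 spots, for 5 of the 911 genes with a name here. They were the defensins NP-3a (LOC100009134, 5 probes) and NP-4 (LOC100009135, 1 probe), corticostatin-6 (LOC100009136, 1 probe, synonym NP-5 in the RefSeq table), the cathelicidin CAP18 (LOC100009142, CAMP in the RefSeq table, 5 probes on 9 spots) and calgranulin C (LOC100008703, 4 probes). No description held S100A8, S100A9, cathelicidin or neutrophil antibiotic peptide, and none was left out as a beta-defensin.

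RNA was hybridised to 20 one-colour arrays, 4 in each of 5 groups of male rabbits aged 6 months. In 4 of the groups the left joint had undergone internal derangement of the temporomandibular joint and cartilage was taken 1, 2, 4 or 8 weeks later, and the fifth group was an untreated control. A sham operation is not among the labels, and the single control group, which carries no time, served for every time. Array titles number the samples within groups and the design text counts separate rabbits, so each array was taken as 1 animal.

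Alpha-defensins and cathelicidins are small cationic antimicrobial peptides that neutrophils make as precursors during their maturation in the marrow and store in granules, so that their mRNA is abundant in neutrophil precursors and falls as the cells mature. Corticostatins are defensins of the same family that were also described as inhibitors of corticotropin-stimulated steroid production. Calgranulins are calcium-binding S100 proteins of neutrophils and other myeloid cells, and calgranulin C is also called S100A12.

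The probe sequences are shown because they decide which of these genes can be told apart by hybridisation. The first 30 bases of each 60-base probe are given for 4 genes, and the whole probe for CAP18; in the first pair, capitals mark the bases that differ, and in CAP18 they mark the stretch shared by all 5 of its probes.
corticostatin-6: TAtacCctttgcctcatcttttcctttccc
NP-4: ATtacTctttgcctcatcttttcctttccc
NP-3a: gggaaactgtttccactcctctgctatgtc
calgranulin C: catcaaagcccagccttgcccgagggagta
CAP18: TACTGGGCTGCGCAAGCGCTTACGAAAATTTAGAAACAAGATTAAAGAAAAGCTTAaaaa
The corticostatin-6 and NP-4 probes were identical at 56 of 60 positions, so that either transcript may hybridise to both probes and the pair cannot be told apart here. The NP-3a probes were identical to each of them at no more than 33 of 60 positions when aligned without gaps, and cross-hybridisation was not tested. Within CAP18 and NP-3a the 5 probes shared a stretch of 56 bases, and the 4 calgranulin C probes one of 57, so probes of 1 gene are overlapping readings of the same stretch and not independent measurements. The letters AATAAA, a polyadenylation signal in mRNA, were found on the probe strand in all NP-3a, NP-4, corticostatin-6 and calgranulin C probes and in 0 of the 5 CAP18 probes, against 3.99% of all 43603 probes. In the RefSeq table (mOryCun1.1) the genes of NP-3a, NP-4 and corticostatin-6 are direct neighbours on one chromosome, with NP-4 in the middle.

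Levels are log2 signal relative to the 75th percentile of the array, so that 0 is the brightness of a spot at that percentile. A gene's level is its probe of the highest mean. All 16 probes were kept by the filter on dim probes, which retained 26922 of 43603. Levels are not compared between genes, since probes differ in how they bind.

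In all 5 genes the arrays of 2, 4 and 8 weeks ran from high to low, those of 1 week lay closer together, and the spread between animals of one group was among the widest on the array. The NP-4 level was 3.64, 1.48, 2.91 and 1.81 on the 4 arrays of 1 week, and -3.56, -3.65, 5.02 and 6.55 on those of 2 weeks. It was 5.42, 1.29, 7.94 and 7.67 at 4 weeks, and -2.91, 6.80, 5.25 and 2.18 at 8 weeks, against 3.31, 4.02, 4.16 and 7.32 in control. The arrays of 2 weeks thus formed a low pair and a high pair, and 1 array of 8 weeks lay far below the other 3. In linear signal, which has no fixed unit, NP-4 ran from 26.7 to 28523 at 2 weeks, a range of at least 1166-fold after scaling (the lowest array was not well above background, and is set at the dimmest level that was), and from 46.7 to 55222 at 8 weeks, an 836-fold range. The range was 100.5-fold at 4 weeks and 4.49-fold at 1 week, against 16.1-fold in control. That lowest array, replicate 2 of 2 weeks, was the only one of the 20 not well above background for NP-4.

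Corticostatin-6, whose probe nearly matches that of NP-4, was at 3.93, 1.76, 3.04 and 1.90 at 1 week and at -3.00, -3.16, 5.12 and 6.62 at 2 weeks. Its 4-week arrays were at 5.51, 1.43, 8.00 and 7.78 and its 8-week arrays at -3.23, 6.87, 5.37 and 2.31, against 3.49, 4.24, 4.33 and 7.46 in control. High and low arrays were those of NP-4, and no operated group was separate from control.

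The defensin NP-3a was at 1.74, -0.56, 0.75 and 0.02 at 1 week, at -3.19, -2.97, 2.60 and 3.96 at 2 weeks and at 2.86, -0.85, 5.57 and 5.38 at 4 weeks. It was at -1.91, 3.77, 2.68 and 0.18 at 8 weeks, against 1.20, 0.99, 2.13 and 5.10 in control. The pair of low arrays at 2 weeks, the low second array at 4 weeks and the low first array at 8 weeks recurred in this gene. Its probe matched the other 2 defensin probes at no more than 33 of 60 positions. The other 4 NP-3a probes had mean levels of 1.13 to 1.44, against 1.47 for the brightest, and spreads within groups of 2.57 to 2.79.

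CAP18, the rabbit cathelicidin, which is known to bind bacterial lipopolysaccharide, was at -1.06, -3.64, -1.40 and -1.63 at 1 week and at -4.83, -2.90, 1.94 and 3.86 at 2 weeks. It was at 2.07, -0.27, 4.76 and 4.41 at 4 weeks and at -5.20, 3.37, 2.88 and -1.34 at 8 weeks, against 0.05, 0.69, 0.11 and 3.93 in control. Of the 20 arrays, 17 were well above background for CAP18, and the exceptions were 1 array each of 1, 2 and 8 weeks. Its 4 arrays of 1 week all lay below its 4 control arrays.

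Calgranulin C was at -0.79, -1.72, 0.20 and 0.60 at 1 week, at -2.27, -1.99, 0.77 and 3.86 at 2 weeks and at 2.70, 0.73, 4.80 and 4.90 at 4 weeks. It was at -2.27, 3.17, 2.70 and -0.33 at 8 weeks, against 1.14, 1.02, 2.20 and 4.25 in control. Its arrays of 1 week again all lay below those of control, and all 20 arrays were well above background.

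**Figure D1:**
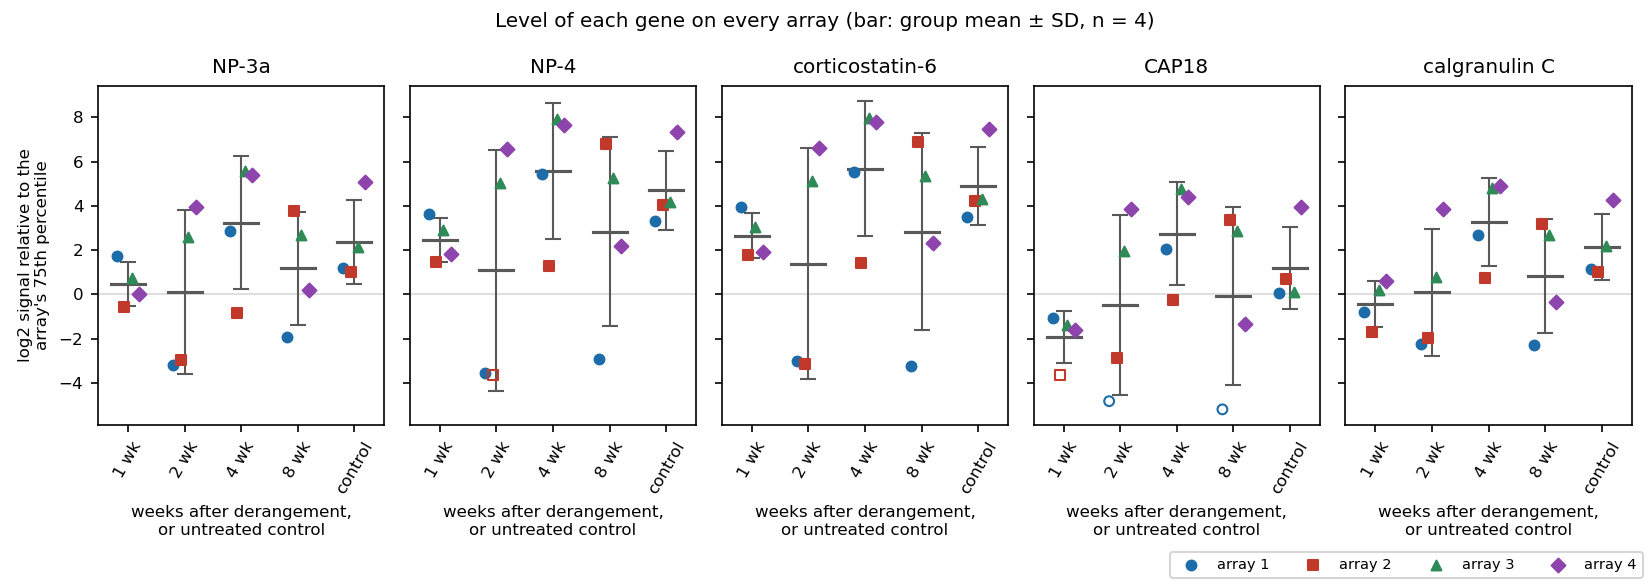
Log2 signal relative to the array's 75th percentile for each gene on each of the 20 arrays; symbols are the replicate number within a group, open symbols are not well above background, and bars are the group mean ± SD (n = 4). In each gene the 2-week and 8-week groups span several log2 units, with NP-4 from -3.65 to 6.55 at 2 weeks, while the 1-week arrays lie close together.

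The spread between arrays of one group, pooled over the 5 groups, was 3.51 log2 units for NP-4 and 3.48 for corticostatin-6. These were the ranks 11 and 12 among the 26922 kept probes, and all 10 probes with a wider spread than NP-4 were described as lipophilins, secretory proteins of glands. CAP18 had an SD of 2.93 (rank 33), NP-3a of 2.60 (rank 46) and calgranulin C of 2.10 (rank 88). All 16 probes lay between ranks 11 and 97, above the 99th percentile of kept probes at 1.51 and far above their median of 0.284. Among the 2573 probes whose mean level was within 1 log2 unit of that of NP-4, NP-4 had the widest spread, and CAP18 had the widest among 6780 such probes. The rank among probes of like level was 5 of 5285 for NP-3a and 20 of 5737 for calgranulin C. The spread differed by group: the SD of NP-4 was 1.00 at 1 week, 5.46 at 2 weeks, 3.08 at 4 weeks and 4.28 at 8 weeks, against 1.78 in control (n = 4 each). Whether the groups differed in spread was not tested.

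**Figure D2:**
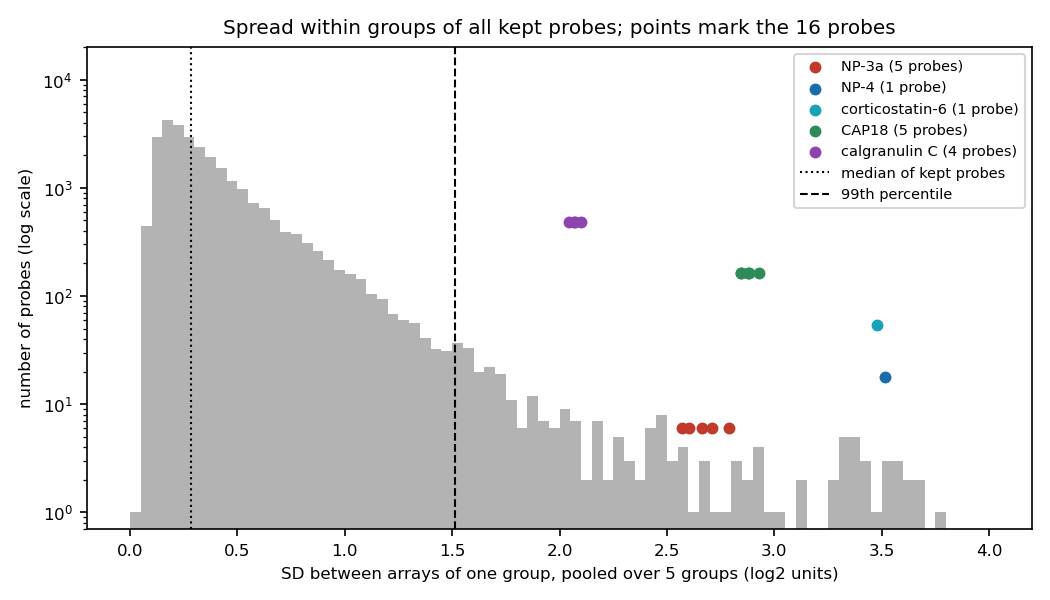
Histogram of the SD between arrays of one group, pooled over the 5 groups, for all 26922 kept probes (log count axis), with the 16 probes of the 5 genes as points whose height has no meaning. Every point lies to the right of the 99th percentile, 1.51 log2 units, drawn as a dashed line.

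The 5 genes were high and low on the same animals. Over the 20 arrays, each gene's deviation from its group mean was correlated with that of each other gene, which gave 10 pairs, with r of 0.924 to 0.999 and Spearman's rho of 0.901 to 0.992. The highest r and rho were those of NP-4 with corticostatin-6, whose probes nearly match and cannot be told apart. Pairs of NP-4 and pairs of corticostatin-6 with the same gene are therefore not separate relations. Permuting arrays within groups (100000 permutations, two-sided) gave p-values of 1e-05 to 5e-05 for r and of 1e-05 to 0.0001 for rho, where 1e-05 is the smallest they can give. After Benjamini-Hochberg adjustment over the 10 pairs they were at most 5e-05 and 0.0001. NP-3a with NP-4, whose probes matched at no more than 33 of 60 positions, had r = 0.973. Without the 2 arrays farthest from the median of NP-3a r was 0.969. CAP18 with calgranulin C, of unrelated families, had r = 0.954, and 0.939 without the 2 farthest arrays of CAP18. Across the 10 pairs r without the 2 farthest arrays was 0.891 to 0.999. Within the 8 arrays of the first scan day it was 0.93 to 1.0, and within the 12 of the second 0.912 to 0.999. The 3 highest arrays of all 5 genes were replicates 3 and 4 of 4 weeks and replicate 4 of control, so both a derangement group and the control held animals at the top. Replicates 1 and 2 of 2 weeks and replicate 1 of 8 weeks were among the 4 lowest arrays of all 5 genes.

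**Figure D3:**
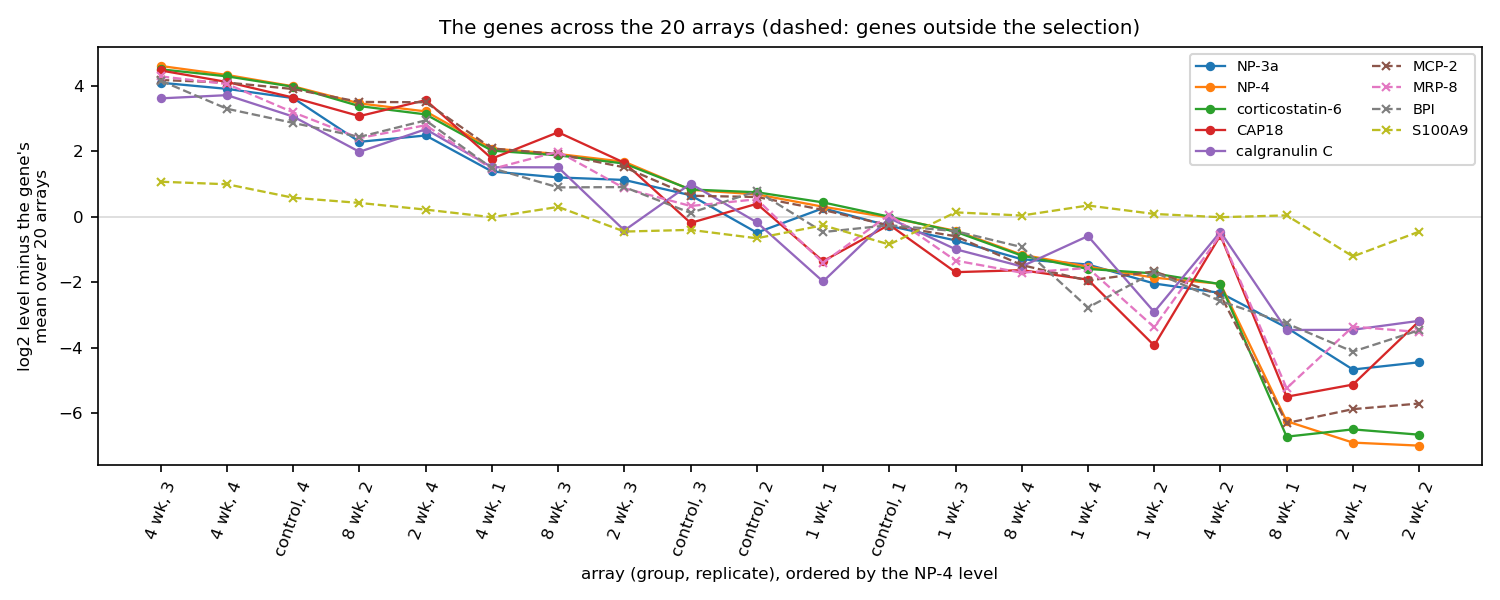
Log2 level minus the gene's mean over 20 arrays, with arrays ordered by their NP-4 level; solid lines are the 5 genes and dashed lines MCP-2, MRP-8, BPI and S100A9, which the selection did not take. The 5 solid lines fall together from about 4 wk, replicates 3 and 4, to 2 wk, replicates 1 and 2, with groups mixed along the axis, and S100A9 stays nearest to its mean.

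Named genes outside the 5 were ranked by the correlation, over 20 arrays, of their deviations with the mean deviation of the 5 genes, and the 6 highest are given as a description, since they were picked for their likeness. MCP-2 (macrophage cationic peptide 2), a rabbit alpha-defensin whose description lacks the words searched, had r = 0.993 and MRP-8, another name of the calgranulin S100A8, r = 0.984. BPI, a granule protein that binds bacterial lipopolysaccharide, followed with r = 0.963, then a transcript described only as a leukocyte protein (LOC100009166) with r = 0.960. The cytokine IL1B (0.854) and the inositol phosphate kinase IP6K2 (0.835) completed the 6. The SD within groups was 3.35 for MCP-2 (rank 18), 2.49 for MRP-8 (rank 54) and 2.44 for BPI (rank 62), against 0.272 for IP6K2. Of the 26922 kept probes, 45 (0.167%) had r above 0.9, among them all 16 probes of the 5 genes, and 10 of the 45 were unnamed. The 16 probes enter that mean or overlap probes that do, so their high r was largely set in advance. The median r over all kept probes was 0.003.

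MCP-2 was at 4.80, 2.92, 4.00 and 2.64 at 1 week, at -1.29, -1.12, 6.10 and 8.09 at 2 weeks and at 6.68, 2.20, 8.77 and 8.69 at 4 weeks. It was at -1.71, 8.10, 6.50 and 3.11 at 8 weeks, against 4.32, 5.19, 5.23 and 8.49 in control. Its high and low arrays were those of NP-4. MRP-8 ran from -3.59 to -1.55 at 1 week, from -3.74 to 2.58 at 2 weeks, from -0.77 to 4.07 at 4 weeks and from -5.45 to 2.19 at 8 weeks, against -0.15 to 2.97 in control. The lowest MRP-8 arrays of 1, 2 and 8 weeks were not well above background, so its spread rests in part on dim values. S100A9, the partner of S100A8 in calprotectin, had 1 probe, named through the RefSeq table from an expressed sequence tag, and was chosen here after its values were seen. It ran from -2.20 to -0.77 at 2 weeks, against -1.83 to -0.40 in control, with an SD within groups of 0.492 (rank 5802) and r = 0.705 with the 5 genes. In the RefSeq table the genes of S100A8 and calgranulin C are direct neighbours, and 1 gene lies between calgranulin C and S100A9.

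No gene of the 5 differed between groups beyond the spread of its animals in the fit over all probes (limma, Benjamini-Hochberg adjustment over 26922 probes, adjusted p under 0.05). Against control, 0 of the 16 probes passed at 1 week, where 13.9% of all probes did, 0 at 2 weeks (0.457% of all), 0 at 4 weeks (8.56%) and 0 at 8 weeks (12.8%). Only the 2-week arrays were scanned on the same day as control. At 1, 4 and 8 weeks scan day and group therefore cannot be told apart in these shares. Between times, 0 of 16 passed for 4 weeks against 1 week (1.08% of all), for 8 weeks against 1 week (0.0149%) and for 8 against 4 weeks (0.565%), and 0 of 16 in the F test among the 5 groups (15.8%). At an unadjusted p under 0.05, 9 of 16 passed for 4 weeks against 1 week, where 12.3% of all probes did. In the other comparisons 0 of 16 reached that level, against 29.3% of all probes at 1 week, 7.78% at 2 weeks, 23.9% at 4 weeks and 27.4% at 8 weeks against control, 14.6% for 8 weeks against 1 week, 13% for 8 against 4 weeks and 32.5% in the F test.

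Group means of NP-4 were 2.46 ± 1.00 at 1 week, 1.09 ± 5.46 at 2 weeks, 5.58 ± 3.08 at 4 weeks and 2.83 ± 4.28 at 8 weeks, against 4.70 ± 1.78 in control (log2 level, SD, n = 4 each). NP-3a and corticostatin-6 had the same order of means: 4 weeks, control, 8 weeks, 1 week and 2 weeks. In CAP18 and calgranulin C the 1-week mean came below that of 2 weeks. Neighbours in these orders differed by less than the SD of at least 1 of the groups. CAP18 averaged -1.93 ± 1.16, -0.48 ± 4.06, 2.74 ± 2.34 and -0.07 ± 4.02 at 1, 2, 4 and 8 weeks, against 1.20 ± 1.85 in control, and calgranulin C -0.43 ± 1.04, 0.09 ± 2.86, 3.28 ± 1.98 and 0.82 ± 2.58, against 2.15 ± 1.49 in control.

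At 1 week against control all 16 probes had values below 0, with a median log2 difference of -2.50, against 0.03 over all probes. The 1-week and control arrays were scanned on different days, so scan day and group cannot be told apart in this comparison. CAP18 had a log2 difference of -3.13 (SE 1.93, 95% interval -7.20 to 0.95, limma adjusted p = 0.299) and calgranulin C had a difference of -2.58 (SE 1.39, -5.51 to 0.35, adjusted p = 0.228). The 5 CAP18 and 4 calgranulin C probes had all arrays of 1 week below all of control, 9 of 16 probes, where 5.45% of all probes did not overlap in that direction. Probes of 1 gene are overlapping readings, so the probe counts in this paragraph are not counts of independent measurements. NP-4 had a difference of -2.24 (-7.13 to 2.65, adjusted p = 0.555). Since one spread was fitted for all groups and the 1-week and control arrays varied less than the rest, the fit over those 2 groups alone was also read: 12 of 16 probes had an unadjusted p under 0.05 there, where 21.8% of all probes did, and the lowest adjusted p was 0.0979, for CAP18.

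At 4 weeks against 1 week all 16 probes had values above 0, with a median of 3.67, against -0.02 over all probes. Calgranulin C had a log2 difference of 3.71 (SE 1.39, 95% interval 0.79 to 6.64, limma adjusted p = 0.267) and CAP18 of 4.67 (SE 1.93, 0.60 to 8.75, adjusted p = 0.324), and their 9 probes were those with an unadjusted p under 0.05. In 8 of 16 probes, all 5 of CAP18 and 3 of calgranulin C, every 4-week array lay above every 1-week array, where 3.14% of all probes did. These too are overlapping readings of CAP18 and of calgranulin C, not independent measurements. NP-3a had a difference of 2.75 (-0.87 to 6.38, adjusted p = 0.543) and NP-4 of 3.12 (-1.77 to 8.01, adjusted p = 0.618). These groups shared a scan day but not a slide. In the other 5 comparisons 0 of 16 probes had groups that did not overlap, where this held for 5.68% of all probes at 2 weeks, 17.7% at 4 weeks and 22.5% at 8 weeks against control, 8.07% for 8 weeks against 1 week and 12% for 8 against 4 weeks.

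In the other comparisons the intervals were as wide. NP-4 had a log2 difference of -3.61 at 2 weeks against control (95% interval -8.51 to 1.28), of 0.88 at 4 weeks (-4.01 to 5.77) and of -1.87 at 8 weeks (-6.76 to 3.02), with limma adjusted p of 0.798, 0.862 and 0.656. All 3 intervals include 0, and at 4 and 8 weeks they reach several log2 units in both directions. Calgranulin C, with the narrowest spread of the 5, had differences of -2.06 (-4.98 to 0.87), 1.13 (-1.80 to 4.06) and -1.34 (-4.26 to 1.59) at 2, 4 and 8 weeks against control.

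**Figure D4:**
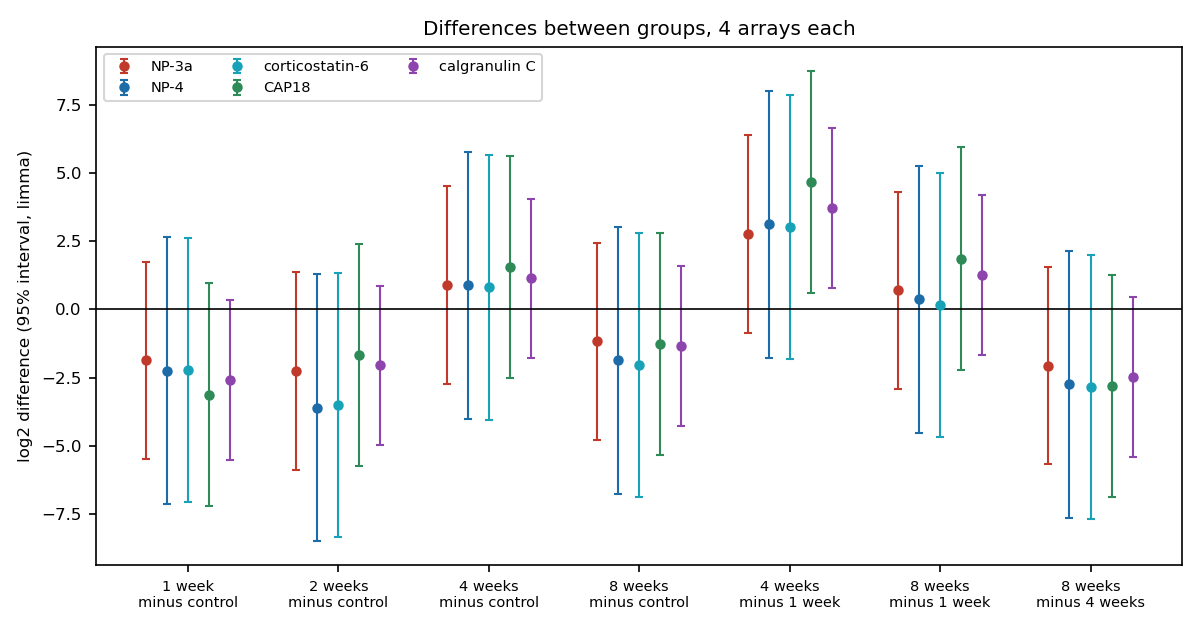
Log2 difference between groups for each gene with its 95% interval from limma (4 arrays in each group). All intervals against control include 0, and those of CAP18 and calgranulin C for 4 weeks minus 1 week start at 0.60 and 0.79, with adjusted p of 0.324 and 0.267.

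In bulk tissue, fewer cells of a type and less RNA per cell cannot be told apart, and this holds for every level given here. Of the neutrophil markers listed, CXCR2 is described here. The relations of NP-4 were computed with 52 listed genes and 2 measures of array quality, with p-values from permuting arrays within groups, adjusted over these 54 relations. Every r with an adjusted p under 0.05 was positive, among them BPI (r = 0.962, adjusted p = 0.00054), IL1B (0.842, adjusted p = 0.00882), CA1 (0.666, adjusted p = 0.0484), DCN (0.465, adjusted p = 0.0484) and IL1A (0.413, adjusted p = 0.0484). By rho, adjusted p was 0.0027 for BPI and 0.0214 for IL1B, and it was 0.0889, 0.162 and 0.184 for CA1, DCN and IL1A.

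Of the red cell transcripts, CA1 (carbonic anhydrase I) passed the test of its relation to NP-4. The 3 measured erythroid markers of 10, HBA1, HBB and CA1, had r of 0.575, 0.667 and 0.666 with NP-4 (permutation p = 0.0999, 0.00832 and 0.00476, adjusted 0.317, 0.0642 and 0.0484), and rho of 0.445, 0.674 and 0.654 (p = 0.134, 0.0098 and 0.00697, adjusted 0.444, 0.0889 and 0.0889). Without the 2 farthest arrays r was 0.470, 0.586 and 0.614. Their summed level, log2 relative to the 75th percentile, ran from 8.39 to 8.81 at 1 week, 6.11 to 9.69 at 2 weeks, 8.63 to 9.05 at 4 weeks and 8.11 to 9.34 at 8 weeks, against 8.21 to 9.20 in control. At 2 weeks it was 8.38 and 6.11 on the arrays with low NP-4 and 8.30 and 9.69 on those with high NP-4. No erythroid marker passed the test in any of the 7 comparisons. Their part in the spread of the granule genes was not tested.

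For other neutrophil-linked genes the relation to NP-4 did not pass the test. CXCR2, the receptor by which neutrophils follow CXCL8, had r = 0.046 and rho = 0.093 with NP-4 (permutation p = 0.873 and 0.732) and CXCL8 r = 0.057 and rho = 0.141 (permutation p = 0.805 and 0.581). Within the scan days r was 0.346 and -0.275 for CXCR2 and 0.417 and -0.305 for CXCL8. CXCR2 was at -0.09 ± 0.37 at 1 week, -1.65 ± 0.33 at 2 weeks, -0.30 ± 0.18 at 4 weeks and -0.50 ± 0.10 at 8 weeks, against -1.64 ± 0.27 in control (log2 level, SD, n = 4 each). It rose at 1, 4 and 8 weeks against control, with log2 differences of 1.55, 1.34 and 1.14 (SE 0.187 each, limma adjusted p = 2.11e-05, 0.000186 and 0.000656), and had a difference of -0.01 at 2 weeks (adjusted p = 0.997). The 3 groups in which it was higher were scanned on another day than control, and the 2-week arrays on the same day as control, so scan day and group cannot be told apart there. MMP9, a gelatinase of neutrophil granules and of osteoclasts, was at 8.84 to 9.10 in all operated groups, against 8.91 in control, as group means, with r = -0.013 and rho = -0.033 with NP-4 (permutation p = 0.955 and 0.905).

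Of the listed companions of granule peptides outside the 5 genes, 2 of 19 granule proteins were measured (BPI and MMP9) and 0 passed in any comparison. Of the oxidase subunits, NCF4 was lower at 1 week (log2 difference -1.10, SE 0.29, limma adjusted p = 0.0178), and CYBA and NCF1 did not pass. Of 5 measured chemoattractants of 13, 3 were higher at 1 week, 0 passed at 2 weeks, 2 were higher at 4 weeks and 2 at 8 weeks against control. None was lower. CXCL8 was higher at 1, 4 and 8 weeks (log2 differences 1.33, 1.18 and 1.17), in 3 of its 4 probes. TNF was higher at 1 and 4 weeks (0.97 and 1.31), in 3 of its 5 probes. CXCL5 passed at 1 and 8 weeks (limma adjusted p = 0.0296 and 0.0311) and was not well above background on any control array. At 8 weeks, where all 4 arrays measured it, its change is therefore a bound, at least 1.11-fold higher. The bound is set against the dimmest signal well above background on each control array. At 1 week 2 of 4 arrays measured it, so no bound can be given. IL1B, the cytokine most like the granule genes, had values of -1.62, -1.50, -0.57 and -1.61 at 1, 2, 4 and 8 weeks (adjusted p of 0.115 or more). Of the calgranulin receptors, TLR4 was lower at 1 and 4 weeks (-0.80 and -0.82, adjusted p = 0.0392 and 0.0481), and TLR2 and CD36 did not pass. CD14, the lipopolysaccharide co-receptor of monocytes, was lower at 4 weeks (-1.29, adjusted p = 0.0133). The arrays of 1, 4 and 8 weeks were scanned on another day than control, and those of 2 weeks on the same day. Scan day and group therefore cannot be told apart in any of these differences that passed.

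The tissue label was checked with chondrocyte markers. COL2A1, the main collagen of cartilage, was at 7.21 to 11.2 and well above background on all 20 arrays, as was ACAN, while SOX9 was above background on 8. COL2A1 and SOX9 had r of -0.488 and -0.536 with NP-4 (adjusted p = 0.199 and 0.0792). The summed chondrocyte markers ran from 9.28 to 11.7 at 1 week, 7.79 to 9.19 at 2 weeks, 9.69 to 10.9 at 4 weeks and 7.33 to 10.01 at 8 weeks, against 8.65 to 9.66 in control. Skeletal muscle markers stood apart on control replicates 1 and 2, with summed levels of 6.61 and 9.10, against 3.45 and 2.24 on the other 2 control arrays and at most 1.97 on operated arrays. Without control replicates 1 and 2, 0 of the 16 probes passed in any comparison, and NP-4 at 4 weeks against control had a value of -0.16 in place of 0.88.

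Relations of NP-4 to array quality did not pass the test. NP-4 had r = 0.156 with the log2 75th percentile of signal (rho 0.165, permutation p = 0.413 and 0.472) and r = -0.072 with the share of spots well above background (rho -0.208, permutation p = 0.65 and 0.386). Within the scan days r with the 75th percentile was -0.512 and 0.519. By position on the slide, the mean deviation of NP-4 was -0.21, -1.66, 0.09 and 1.77 at positions 1 to 4 (5 arrays each), with values at position 4 from -0.65 to 5.47, and its part in the spread was not tested. Each group was hybridised on a slide of its own, so slide and group cannot be told apart. The 75th percentile ran from 174.1 to 641.8 and the share of spots well above background from 49.1% to 66.4%. No spot was saturated, and no spot of the 16 probes was marked as an outlier.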

How the data were processed

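Values were the deposited intensity of each spot (gProcessedSignal, linear, arbitrary unit), which per the file headers came from Agilent Feature Extraction 10.7.1.1 with background subtracted and dim signals replaced by small positive values. The authors' value table, also intensity, was an alternative. In Python 3.11.15 and R 4.3.3, outlier spots were left out, spots of a probe averaged, log2 taken and each array's 75th percentile subtracted. Probes well above background on 3 of 4 arrays of a group were kept. limma 3.58.1 (lmFit, eBayes) fitted 5 group means over 20 arrays, with two-sided p-values adjusted by Benjamini-Hochberg. The brightest kept probe on average stood for a gene. Named were all members, up to 4 genes a list with the lowest F test p, a fixed panel, and the 6 named genes most like the members. Members and lists were chosen with earlier results of these data known. Of 43603 probes, 40932 had no gene name here. The fit was tested on simulated data. Alternatives covered background correction, scaling, filter, groups fitted, scan day, replicate block and leaving out arrays. The array number limits the precision. Whether replicate numbers pair animals was checked: 8 of 40 same-numbered pairs correlated above 0.1, against 26 of 120 other pairs, so they were not treated as pairs. Some results are not reported here.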

Additional observations from a re-analysis of the deposited data

Results flagged for a closer look

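CAP18 on control replicate 4 was at 3.93, against 0.69 for the nearest of the other 3 control arrays. Its distance from the nearest array was 0.835 of the range of the control group, above Dixon's critical value for 4 samples. Of 25 group values examined (5 genes in 5 groups), it was the only one past that value, and chance passes about 1 in 20. The same array was also the highest control array for NP-3a, NP-4, corticostatin-6 and calgranulin C, at 5.10, 7.32, 7.46 and 4.25. Without it, CAP18 at 1 week against control had a log2 difference of -2.21, against -3.13 with it.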

How the results depend on the processing

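Each of the 8 counts of called probes was 0 of 16, as in the fit reported, under the 28 to 30 alternatives run for it (235 values in all; the fit within one scan day could be made for 4 comparisons, and the mean of all probes gave no counts). The lowest adjusted p of any probe under any alternative was 0.0865, in the F test without replicate 4 of 2 weeks, and 0.0979 for 1 week against control fitted on those groups alone. Of the 35 gene differences, none changed direction under the normexp, median, quantile, filter, value table, scan day, groups-compared or replicate block alternatives, or with the mean of all probes of a gene, added after the data were seen. Leaving out arrays turned 12 values, and single arrays set most sizes. At 8 weeks against control, values ran from -2.42 to 0.44 for CAP18 and from -3.20 to 0.041 for NP-4, both highest without replicate 1 of 8 weeks. For 8 weeks against 1 week, values ran from -0.17 to 1.72 for NP-3a, from -0.95 to 2.28 for NP-4 (-0.44 without replicate 3 of 8 weeks) and from -1.17 to 2.19 for corticostatin-6, with -0.67 without replicate 3 of 8 weeks and -0.13 and -0.08 without replicates 2 and 4 of 1 week. Without control replicates 1 and 2 the differences at 4 weeks against control were -0.38 for NP-3a, -0.16 for NP-4 and -0.21 for corticostatin-6. The cause was not tested. With the replicate number as a block, 0 of 16 probes were called, 4 each had an unadjusted p under 0.05 at 1 week against control (29.1% of all probes), for 8 against 4 weeks (12.8%) and in the F test (31.7%), each 0 without the block, and the whole table gave 7 calls for 8 weeks against 1 week, against 4 without it. Same-numbered arrays had a median correlation of 0.008 over 40 pairs, against -0.015 over 120 pairs of other numbers. This gave no sign that the numbers pair the animals, but it cannot exclude pairing. Scan day as a random block was not run, since no group spans scan days. Over all probes, normexp correction gave 44, 0, 28 and 34 calls at 1, 2, 4 and 8 weeks against control, in place of 3733, 123, 2305 and 3440, and leaving out control replicates 1 and 2 gave 1481, 54, 777 and 965. Columns of the authors' table equalled their own array in 16 of 20 cases, and in the 8-week group each column equalled another array of that group, so replicate numbers there are uncertain. The lowest values of CAP18, NP-4 and MRP-8 were not well above background.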

Other observations

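The probes with the widest spread between animals of one group were those of the lipophilins, secretory proteins of the secretoglobin family made by glands, and they were chosen here after their values were seen. The brightest probe of lipophilin AL was at -4.38, 0.27, -0.68 and -0.38 at 1 week, at -6.33, -4.17, 0.06 and 2.53 at 2 weeks, at 2.38, 2.15, 1.28 and -2.39 at 4 weeks and at -0.86, -1.17, -2.04 and -2.64 at 8 weeks, against -6.32, -3.28, 2.46 and 7.33 in control (log2 level). Its spread within groups was 3.55 log2 units, and its deviations had r = 0.386 with those of NP-4 over 20 arrays, given as a description. The high and low arrays of lipophilin AL and of the granule genes thus differed in part: replicate 4 of 4 weeks was the lowest of its group for lipophilin AL and the second highest for NP-4. Both genes were highest in control on replicate 4.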
